A study of Mus musculus with 7 samples.

Results

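The cytosolic ribosomal protein genes code for the proteins of the ribosomes that translate the mRNAs of nuclear genes. They were taken as the protein-coding rows whose mouse symbol is Rps or Rpl followed by digits and at most 1 of the letters a, l, x and y, together with Rpsa, Rplp0, Rplp1 and Rplp2. This gave 80 of the 43346 genes in the table, 31 of the small subunit and 49 of the large subunit. They lay on 19 chromosomes, with 14 of them on chromosome 7 and 4 on the X chromosome. In every mouse, 78 of the 80 genes had a count on the B6 or the CAST allele, and these were tested. The remaining members were Rpl10l, which had no count in any mouse, and Rps27, whose estimated count was at most 2.08e-05. The symbol rule leaves out Rps3a1, Fau, Rack1 and others, which also code for proteins of the ribosome and are described with the related genes.

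Tibial growth plates, the cartilage from which the bone grows in length, were dissected from 7 male F1 mice of a cross between the inbred strains C57BL/6J (B6) and CAST/EiJ (CAST), killed at 21 d of age. All 7 mice belonged to 1 group with no treatment named, and each gave 1 library of total RNA from its proximal and distal growth plates, depleted of ribosomal RNA. Each mouse carried a B6 and a CAST copy of every autosome and, being male, a single X chromosome. The study compared the expression of the B6 and CAST alleles within these mice to find candidate genes for a locus that influences femur length.

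Ribosomal proteins assemble with ribosomal RNA in the nucleolus into a small subunit, which decodes the mRNA, and a large subunit, which joins amino acids. The assembled ribosome needs its proteins in matched amounts, and their mRNAs are among the most abundant of dividing and secreting cells. Many of these mRNAs begin with a cytosine followed by a run of pyrimidines, the 5′ terminal oligopyrimidine (TOP) motif, through which mTOR signalling controls their translation. Loss of a single copy of some of these genes causes Diamond-Blackfan anaemia, a failure of red cell production that can include skeletal defects. Reverse transcription of these abundant mRNAs has left the mouse genome with many near-identical processed copies.

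The libraries held 14098019 to 37849667 estimated counts, more than the average number of read pairs stated for the samples, so that counts need not be separate fragments. All 15 chondrocyte markers examined had counts in every mouse, with Col2a1, the main cartilage collagen, at 38280 to 71280 CPM (counts scaled to a library total of 1000000). The tissue also held RNA of other cells. The summed CPM of osteoblast markers ranged from 37275 to 66756, those of erythroid markers from 8359 to 20289, those of neutrophil markers from 1504 to 3242, those of B-cell markers from 331 to 926, and those of muscle markers from 3953 to 8502. Most of the osteoblast sum was the collagen gene Col1a1, at 33230 to 62970 CPM. Fewer cells of one type and less RNA per cell cannot be told apart in such samples.

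The starts of the genes were searched for the TOP motif. RefSeq start sites were available for 60 of the 80 members in the same genome build (GRCm38). In 13 of the 60 genes (21.7%), the annotated transcript began with C in a run of at least 5 C or T bases. This was so for 0 of 69 mitochondrial ribosomal protein genes and 3.01% of all 27025 genes with a RefSeq start site. The 5 members with the longest runs are shown, with 15 bases before the start in lower case and the pyrimidine run from the start site on in capitals. The windows lie at chr14:18270972-18271001 (minus strand, Rpl15), chr2:39005117-39005146 (minus, Rpl35), chr17:27635230-27635259 (minus, Rps10), chr4:86857353-86857382 (minus, Rps6) and chr17:33955651-33955680 (minus, Rps18).
Rpl15: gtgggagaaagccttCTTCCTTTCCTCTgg
Rpl35: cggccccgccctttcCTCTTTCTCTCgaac
Rps10: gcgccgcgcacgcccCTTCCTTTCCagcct
Rps6: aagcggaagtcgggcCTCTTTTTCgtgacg
Rps18: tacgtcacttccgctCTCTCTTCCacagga

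A start annotated a few bases away would be missed by this search. In the 300 bases around the start, CTTTCC on either strand was present in 53.3% of the members, 30.4% of the mitochondrial ribosomal protein genes and 29.3% of all genes. The letters CCGGAAGT on either strand were present in 12 of the 60 members, 17.4% of the mitochondrial genes and 4.31% of all genes. TATAAA was present in 6 of the 60 members, 7.25% of the mitochondrial genes and 15.7% of all genes. CTTTCC on the forward strand can overlap the pyrimidine run at the start. These are matches of letters only.

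A further set of sequences bears on how far the counts of single members can be read. Of the 80 genes, 71 shared at least 10 windows of 75 bases, the length of a read, with the annotated transcripts of another gene in the table, here called its copies. There were 455 such copies, of which 22 held at least 1000 counts on average and 178 held less than 1. The main transcript of Rpl5 and its copy Gm15500 on chromosome 7 were identical over all 1018 aligned bases. Rps27 and Rps27rt were identical over 341 bases, Rps12 and Rps12-ps3 over 494, Rpl10 and Rpl10-ps3 over 737, and Rpl12 and Gm10275 over 634. Rpl37 and Rpl37rt differed at 1 of 344 aligned bases. Rpsa and Rpsa-ps10 differed at 6 of 885. Coding stretches that hold 1 such difference are given for these pairs, with the differing base in capitals, to show by what a read could be placed on one or the other. The gene windows lie at chr15:5118577-5118605 (plus strand, Rpl37) and chr9:120131450-120131478 (plus, Rpsa), and the copy windows at chr5:115103259-115103287 (minus, Rpl37rt) and chr3:150072671-150072699 (minus, Rpsa-ps10), all in the B6 reference.
Rpl37: cgtgagggaacaacGccgaaacccaagag
Rpl37rt: cgtgagggaacaacAccgaaacccaagag
Rpsa: gcgcaggccactgaGtgggttggagccac
Rpsa-ps10: gcgcaggccactgaAtgggttggagccac

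Reads that matched several genes, or both alleles, were divided among them by the authors' estimation. Totals were not whole numbers in at least 1 mouse (tolerance 1e-04) for 70 of the 78 tested members (89.7%), against 49.3% of all tested genes. More than 50% of the windows of the main transcript occurred in another gene for 26 members (33.3%), against 6.80% of all tested genes. The values of single members with copies are uncertain, and for several of them, though not all, the gene alone and the gene with its copies are both given.

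Together the 80 genes took 2.26% ± 0.259 (SD, n = 7) of the library counts. The share was lowest in mouse 1 at 1.96%, the median was 2.18% and the highest value, in mouse 8, was 2.62%. Of the mean share, 0.909% ± 0.109 fell on small subunit genes and 1.35% ± 0.151 on large subunit genes. The 77 mitochondrial ribosomal protein genes, which serve the separate ribosomes of mitochondria, took 0.123% ± 0.00809. With their copies the cytosolic genes reached 2.66% ± 0.299. The share was 2.84% ± 0.415 when the abundant small RNAs 7SL and 7SK, which held 15.5 to 23.8% of the counts of a library, were left out of the total. It was 3.08% ± 0.469 of the counts of protein-coding genes.

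**Figure D1:**
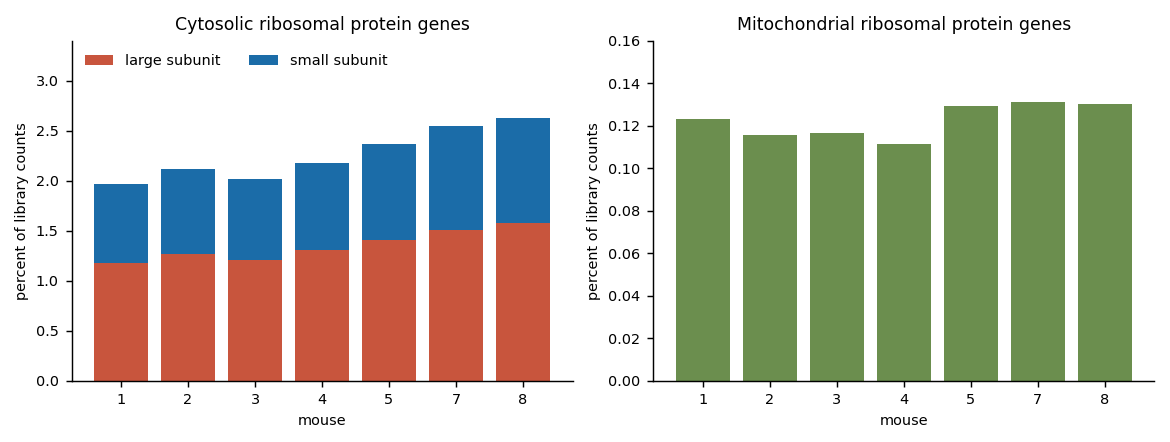
Percent of library counts (vertical axes) on cytosolic ribosomal protein genes, stacked by subunit (left), and on mitochondrial ribosomal protein genes (right), in each of the 7 mice. The cytosolic share ran from 1.96% in mouse 1 to 2.62% in mouse 8, and the mitochondrial share from 0.111% in mouse 4 to 0.131% in mouse 7.

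The 3 highest shares were those of mice 5, 7 and 8, at 2.37%, 2.55% and 2.62%. The mitochondrial ribosomal protein genes were also highest in these mice, at 0.129%, 0.131% and 0.130% against 0.111 to 0.123% in the others. So was the sum of 16 other genes with TOP mRNAs, most of them elongation and initiation factors. It was 7704, 7869 and 7806 CPM against 6493 to 7571. These mice also had the 3 highest sums of erythroid markers, at 20289, 19039 and 14653 CPM against 8359 to 11072 in the other 4 mice. Their osteoblast sums, which were mostly Col1a1, were 41661, 37275 and 38956 CPM, below the 47527 to 66756 of the other 4 mice. The part of cell composition in the ribosomal protein share was not tested.

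Levels of different genes were compared as CPM per kilobase of the main coding transcript. On this scale the median of the 78 tested members was 299.5, with quartiles of 176 and 442. Rplp1 stood highest, with a lowest level of 1072, a median of 1360 and a highest of 1707 over the 7 mice. Rplp0 followed at 815, 1059 and 1197. Both belong to the acidic stalk of the large subunit, which recruits the elongation factors, and a ribosome carries several copies of the P1 and P2 proteins. Rplp1, with a mean of 1374 ± 228 (SD, n = 7), was above Rplp0, with 1009 ± 147, in all 7 mice, although their ranges over mice overlapped. Rplp2, the partner of Rplp1 in the stalk, was at 216, 259.5 and 324, below both in every mouse.

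The next levels were those of Rps18 (750 ± 116), a protein of the head of the small subunit, Rpl19 (743 ± 106), which forms a bridge between the subunits, Rpl13a (694 ± 87.9), a large subunit protein also known as a translational repressor, and Rps29 (659 ± 93.3), a small zinc-binding protein. Rps2, at the entry of the mRNA channel, had 570 ± 80.0, Rpl3, next to the peptidyl transferase centre, 539 ± 53.5, Rps9, a small subunit protein, 530 ± 78.8 and Rpl8, also near the peptidyl transferase centre, 522 ± 77.4. In this order Rpl19 was above Rpl13a, and Rps29 above Rps2, in all 7 mice, with mean log2 ratios of 0.09 ± 0.0357 (SD) and 0.21 ± 0.112. Rpl13a was above Rps29 in 6 mice, by 0.08 ± 0.0817. Between Rps18 and Rpl19, Rps2 and Rpl3, Rpl3 and Rps9, and Rps9 and Rpl8, the mean log2 ratio was smaller than its SD. Leaving aside the paralogs Rpl3l, Rpl39l and Rps27l, 56 of 75 members lay within 2-fold of their median of 310.5. The median was 403 for the small subunit and 270 for the large subunit.

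**Figure D2:**
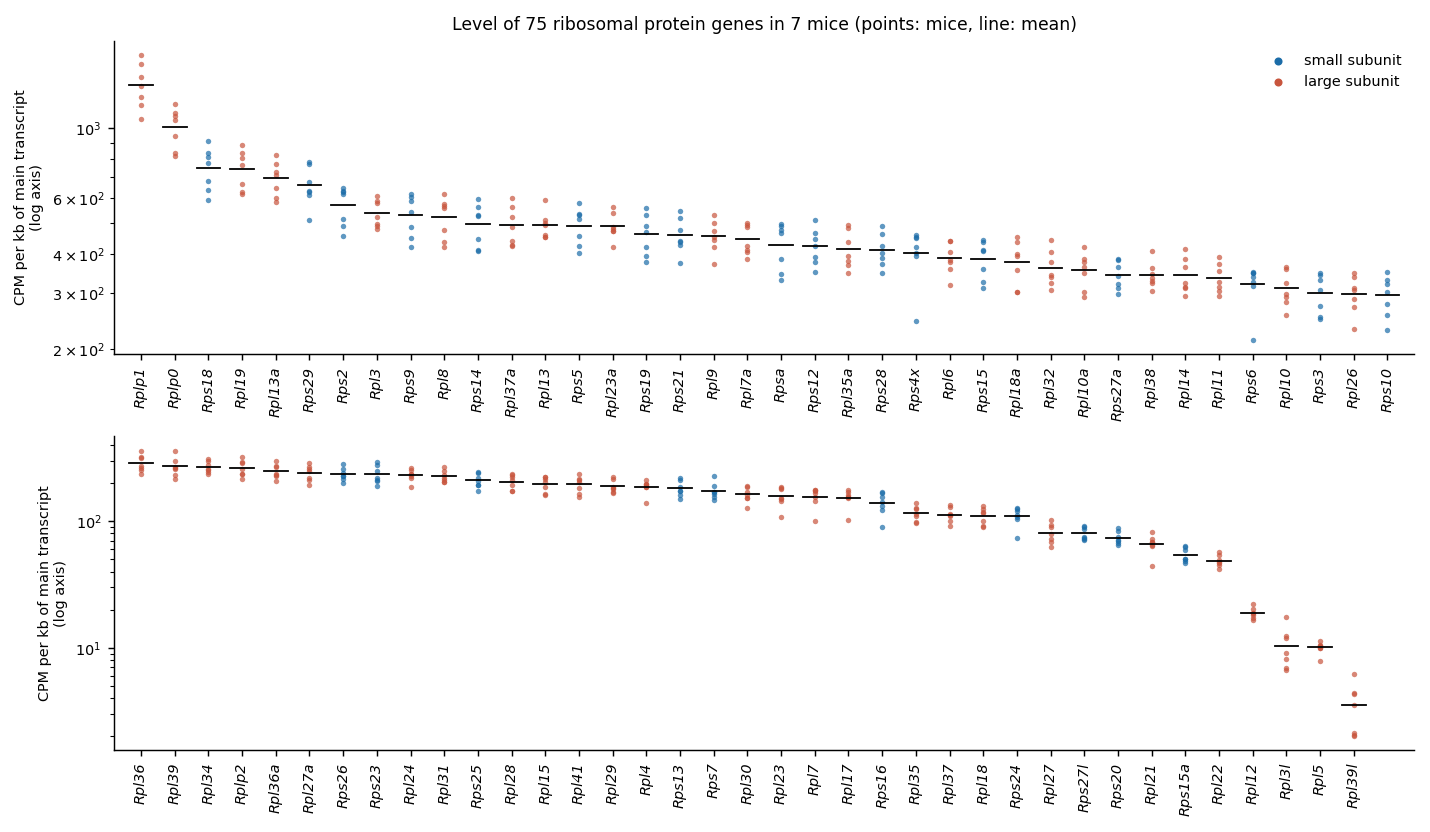
Level of 75 tested ribosomal protein genes in CPM per kilobase of main transcript (log axes), ordered from highest to lowest across both panels, with a point for each of the 7 mice and a line at the mean. Rplp1 and Rplp0 have the highest means, and Rpl12, Rpl3l, Rpl5 and Rpl39l the lowest.

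The lowest levels among the members were those of Rpl39l (3.52 ± 1.57), Rpl5 (10.1 ± 1.07), Rpl3l (10.4 ± 3.86), Rpl12 (18.9 ± 1.95) and Rpl22 (48.8 ± 5.07). Rpl5, Rpl12 and Rpl22 code for regular proteins of the large subunit. For Rpl5, which carries the 5S ribosomal RNA into the ribosome together with Rpl11, the level lay between 7.86 and 11.3, far below that of Rpl11 (294 to 390). The gene itself held 546 counts on average and its copies 4126, so that Rpl5 made up 11.7% of its pool. Counting the pool against the length of Rpl5 gave 86.1 ± 15.1. Rpl12, a protein at the base of the stalk, held 605 counts and its copies 10298, and the pool reached 339 ± 43.3. Rps27, effectively without counts, reached 803 ± 134 with Rps27rt. In all 3 cases the copies held most of the counts of the pool.

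The order depended on the length used. Rps15a, Rps20 and Rpl18 have main transcripts of 5179, 3706 and 2989 bases, against a median of 882 bases, and levels of 54.4, 74.0 and 110. Per kilobase of coding sequence they reached 722, 768 and 585, all above the median of 568 on that scale. Per coding length the medians of the small and large subunits were 638 and 542, and 60 of 75 members lay within 2-fold of the median. With copies pooled and coding length, 65 of 76 did. Rplp1 stayed highest per coding length for the gene alone, at 2005.

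The paralogs were low or absent. Rps27l, which p53 induces, had 35.5 to 45.7 CPM in all 7 mice. Rpl3l, a paralog of Rpl3 known from striated muscle, had 9.18 CPM in the lowest mouse, 12.6 at the median and 24.1 in mouse 1. Mouse 1 also had the highest sum of muscle markers, 8502 CPM, and mouse 4, with the lowest Rpl3l, had the lowest sum, 3953. Rpl39l, a testis paralog of Rpl39, had 1.63 to 4.98 CPM, and Rpl10l, a testis paralog of Rpl10, had no count in 7 libraries. A count of 0 allows up to 3 counts, or 0.213 CPM in the smallest library, for counting error only and if counts are separate fragments. Whether muscle RNA accounts for Rpl3l was not tested.

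Most members were high or low in the same mice. In mice 7 and 8, 76 of 77 members with at least 100 counts in every mouse were above their own mean of log2 CPM, while in mouse 1 only 9 were. No such count is given for all genes, so a shift of the whole library cannot be told apart from one of these members. The SD of log2 CPM over the mice had a median of 0.198 over the members, against 0.181 over 7250 genes with at least 387.7 mean counts. When the median deviation of the members in each mouse was removed, the median SD of the members was 0.0902. Some fall is built into this step, since the median removed was that of the same members, and no like value is given for all genes. The smallest SDs were those of Rpl38 (0.135), Rpl13 (0.138), Rpl23a (0.138), Rpl3 (0.142) and Rpl34 (0.145). The largest were those of Rpl3l (0.507), Rps16 (0.322), Rps4x (0.317), Rpl7 (0.292) and Rpl21 (0.274). Single mice set several of them. Without mouse 4 the SD was 0.0957 for Rps4x, 0.12 for Rpl7 and 0.127 for Rpl21, and without mouse 1 it was 0.189 for Rps16. Among the least variable genes, Rpl38 and Rpl13 had SDs of 0.0855 and 0.0792 without mouse 8.

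Mouse 4 stood apart for a subset of members. Rps4x, the X-linked small subunit protein, had 239 CPM in mouse 4 against 384 to 447 in the other 6 mice. Rpl7 had 117 against 167 to 206 in the others, and Rps6, the substrate of S6 kinase, 187 against 277 to 307. After removal of the median of the mouse, 8 members far below the other mice in mouse 4 (Rpl4, Rpl5, Rpl7, Rpl17, Rpl21, Rps4x, Rps6 and Rps24) deviated from their mean by -0.65 to -0.30 on the log2 scale. Their main transcripts had a GC content of 42.7 to 50%, with a median of 47.4%, and the other 69 members had a median of 52.6% and a range of 41.3 to 60.8%. Other members were as low in mouse 4 but were not among the values flagged below, namely Rpl3l (-0.51, GC 56.1%), Rpl23 (-0.47, GC 46.4%) and Rpl26 (-0.32, GC 54.1%). Of these, Rpl23 also lay clearly below the other mice, with 114.9 CPM in mouse 4 against 153.9 to 196.5. Over the 77 members, the deviation in mouse 4 correlated with GC content at a Spearman rho of 0.528, and over 5781 genes of at least the mean counts of Rpl5 the rho was 0.671. In the other mice the rho over members lay between -0.419 and 0.391. The genes of a mouse share 1 library, so these correlations describe the libraries, and the part of base composition in the low values was not tested.

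**Figure D3:**
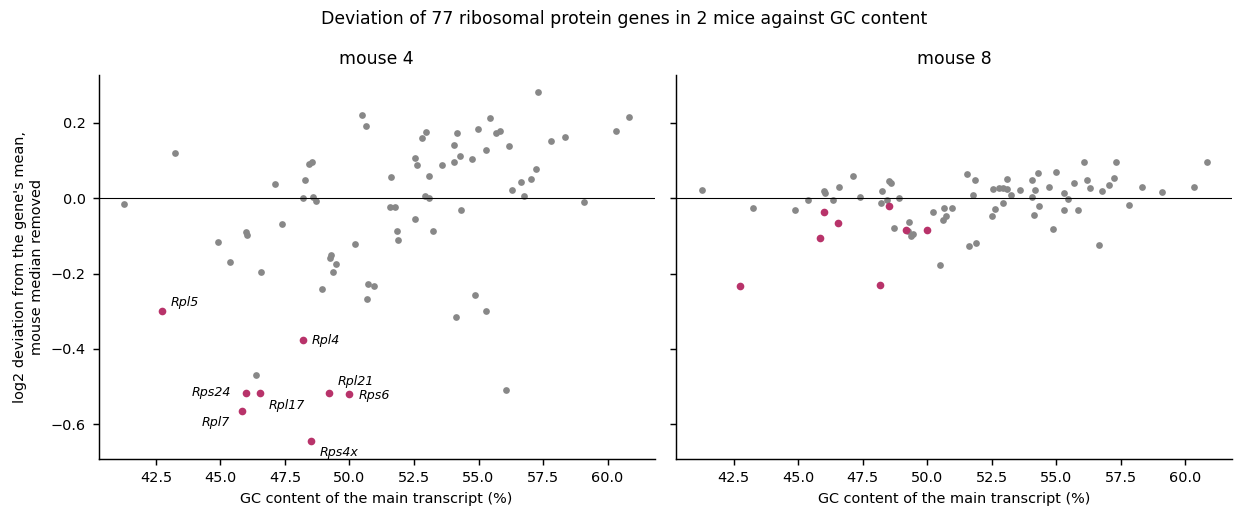
Deviation of 77 ribosomal protein genes from their own mean, in log2 CPM with the median of the mouse removed (vertical axis), against the GC content of the main transcript (horizontal axis), in mouse 4 (left) and mouse 8 (right). The 8 named genes fell by 0.30 to 0.65 in mouse 4 and have a GC content of at most 50%, but unnamed points at higher GC lie as low.

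The main comparison of the study sets the CAST allele against the B6 allele of each gene. Of the 78 members, 33 (42.3%) were called at an FDR under 0.20 by edgeR's likelihood-ratio test over 20020 genes, of which 34.8% were called. CAST was higher in 15 of the 78 members (background 16.1%) and B6 in 18 (background 18.7%). The 18 include Rps4x and Rpl10 on the X chromosome, of which these males carry only 1, and the backgrounds include X-linked genes too. Of the 19347 tested autosomal genes 33.1% were called, 3218 with CAST and 3179 with B6 higher. Among genes with at least the mean counts of Rpl5, 31.9% were called. The median log2 fold change of CAST over B6 was -0.001 over the members, with quartiles of -0.15 and 0.11, beside 0.01 over all genes, with quartiles of -0.24 and 0.20.

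Both alleles of a mouse come from the same library. With the mouse as a block, 57 of the 78 members were called (73.1%, background 45.6%), and 55 by the quasi-likelihood test with the block (70.5%, background 40.7%). No call of the unblocked fit was lost with the block in the likelihood-ratio test, and 24 were added, with differences of 0.02 to 0.23 on the log2 scale. In 51 members (65.4%) the same allele had more counts in all 7 mice, against 24.6% of all tested genes. The tested members had a median of 6701 mean counts, and the part of depth in this gap was not tested.

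For most members the counts were divided nearly equally between the alleles. Among the 74 autosomal members tested, the mean B6 share of the allele counts had a median of 50.3%, with quartiles of 48.2 and 52.7%. It lay between 45 and 55% for 52 of them (70.3%), against 82.7% of 5648 autosomal genes of at least the mean counts of Rpl5. It lay outside 40 to 60% for 13 (17.6%), against 4.89% of those genes and 5 of the 77 mitochondrial ribosomal protein genes. Of these 13 members, 11 had copies that together held at least 1000 counts, which was so for 21 of all 78 tested members.

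**Figure D4:**
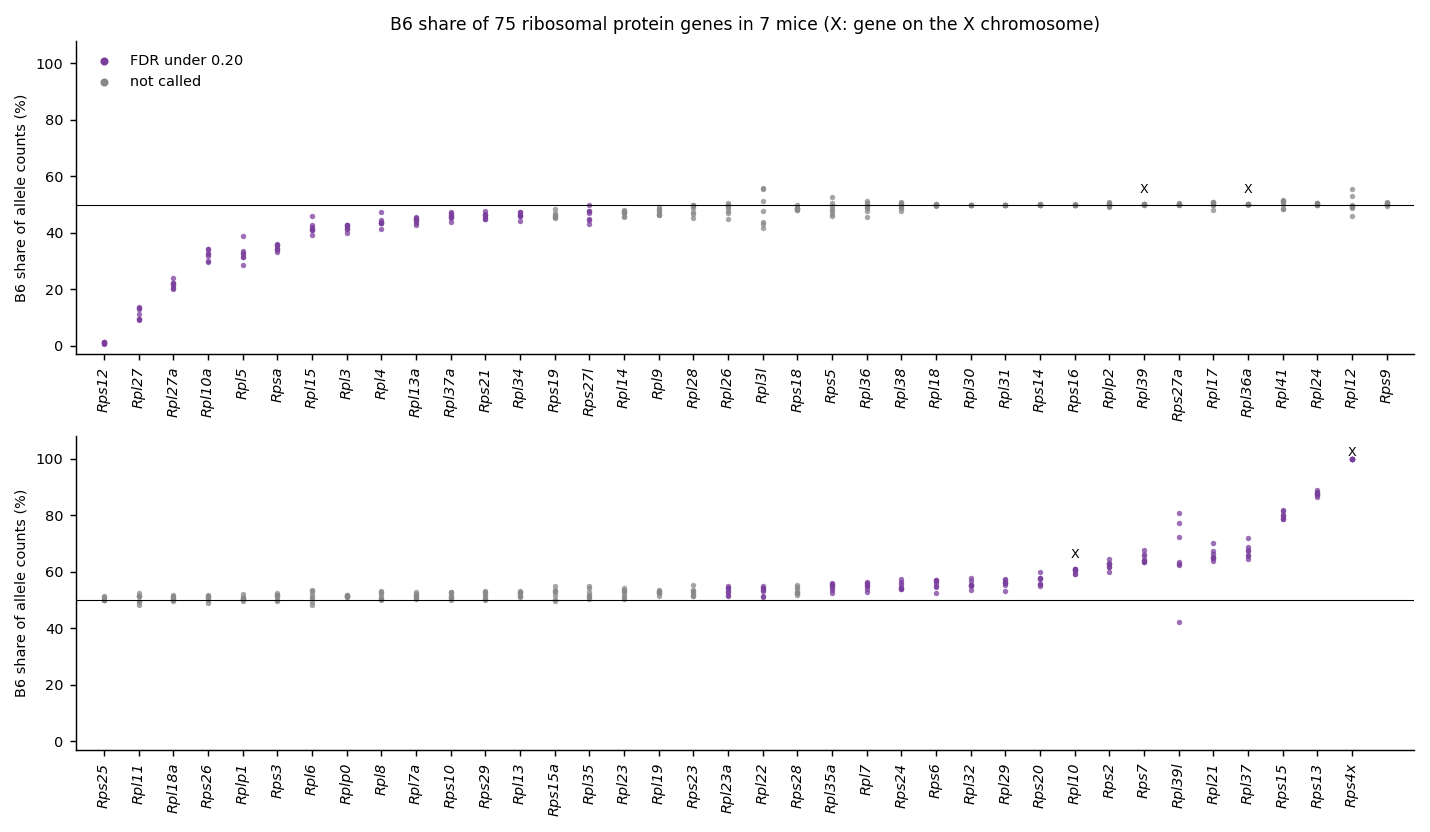
B6 share of the allele counts in percent for 75 ribosomal protein genes, ordered by their mean across both panels, with a point for each of the 7 mice. Members called at an FDR under 0.20 are purple and the others grey, the line marks 50%, and the 4 genes on the X chromosome are marked X. The means run from 1.10% for Rps12 to 99.9% for Rps4x.

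CAST exceeded B6 most in Rps12, a small subunit protein of the beak on chromosome 10 (23785183 to 23787275). Its B6 counts were 23.5 in the lowest mouse, 70.4 at the median and 98.5 in the highest, and its CAST counts 3823, 6205 and 9779. The ranges were far apart, and the log2 fold change was 6.50 ± 0.184 (SE, FDR = 2.76e-271). Its identical copy Rps12-ps3 on chromosome 19 held 7619 counts, divided equally between the alleles. With all copies the B6 share of Rps12 rose from 1.10% to 27.7%, and CAST remained higher at a log2 fold change of 1.40 (FDR = 7.55e-30). Equal counts added to both alleles cannot change which is higher, so the kept direction is no further evidence for it.

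Rpl27, a large subunit protein, had a B6 share of 9.17% in the lowest mouse, 11.4% at the median and 13.7% in the highest, with a log2 fold change of 2.99 ± 0.16 (SE, FDR = 3.07e-76). Rpl27a, another large subunit protein, had 20.2, 21.9 and 24.0%, with 1.86 ± 0.141 (FDR = 4.48e-38). Both kept the higher CAST allele with their copies, at B6 shares of 38.6% and 31.4%. Their main copies, Rpl27-ps3 and Gm7536, were divided equally between the alleles. Such counts cannot reverse the direction, so here too the pool is no further evidence for a higher CAST allele. Rpl10a, the protein of the mobile L1 stalk, had a B6 share of 29.7, 32.6 and 34.3%, with 1.09 ± 0.136 (FDR = 2.37e-14). Its copy Rpl10a-ps1 on chromosome 1 held 2285 counts of which 99.4% were assigned to B6. With its copies, Rpl10a stood at 49.0% B6 and was not called (log2 fold change 0.08, FDR = 0.773).

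Rpl5 had B6 counts of 114, 184 and 253 and CAST counts of 185, 414 and 551, and CAST was higher in all 7 mice. The log2 fold change was 1.07 ± 0.0952 (SE, FDR = 5.46e-28), but the counts were few for a ribosomal protein gene. Pooled with its copies, Rpl5 had a B6 share of 47.2% and was not called (0.17, FDR = 0.270). Its copy Gm15500 held 4060 counts, divided equally between the alleles in every mouse. Adding such counts moves a pool toward 50% in any case, so the lost call does not show equal alleles. Rpsa, a small subunit protein that is also a laminin receptor precursor, was the most abundant of this group. Its B6 counts were 4880, 7017 and 12786 and its CAST counts 8694, 13462 and 23223, with a log2 fold change of 0.93 ± 0.148 (FDR = 6.32e-09). Its copy Rpsa-ps10 held 8869 counts, of which 0.133% were assigned to B6, and the pool was further toward CAST, at 24.6% B6.

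Smaller differences with CAST higher were found in Rpl3 (0.49 ± 0.0987, SE, FDR = 9.59e-06), Rpl4, which lines the exit tunnel (0.38 ± 0.0883, FDR = 0.000176), Rpl15 (0.48 ± 0.135, FDR = 0.00253) and Rpl13a (0.34 ± 0.125, FDR = 0.0308). In each of the 4 genes CAST was higher in all 7 mice, and the exact two-sided sign-flip permutation test of the mean log2 ratio gave p = 0.0156, the smallest that 7 mice allow. Rpl4 shared 8.47% of its windows with other genes, fewer than the other 3, and its copies held 0.579 counts. The B6 share of Rpl4 was 41.2% in the lowest mouse, 43.6% at the median and 47.2% in the highest. The remaining called members with CAST higher, Rpl34, Rps27l, Rpl37a and Rps21 among them, had log2 fold changes of 0.21 to 0.26 and FDRs of 0.0893 to 0.194.

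With B6 higher, Rps4x stood first. This gene on the X chromosome (102184941 to 102189394) had B6 counts of 5019, 11292 and 14514 in the lowest, median and highest mouse and CAST counts of 0.0914, 5.72 and 19.2. The B6 share was between 99.87 and 99.998% in all mice, and the FDR (log2 fold change -10.49 ± 0.222, SE) was too small for the software to represent. Next came Rps13, a small subunit protein on chromosome 7, with B6 shares of 86.5, 87.6 and 89.0% and a log2 fold change of -2.82 ± 0.139 (SE, FDR = 1.31e-89). Rps15, a protein of the head of the small subunit on chromosome 10, had 78.6, 80 and 81.9%, with -1.99 ± 0.138 (FDR = 3.32e-45). The copies of Rps15 held 214 counts against 4986 for the gene, and the pool stayed at 78.8% B6. Rps13-ps1, the main copy of Rps13, was itself 99.97% B6 with 2551 counts, and the pool of Rps13 was at 93.3% B6.

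Rpl37, a zinc-binding protein of the large subunit, had B6 shares of 64.6, 67.5 and 71.9% (-1.03 ± 0.134, SE, FDR = 4.09e-13). Its only copy, Rpl37rt on chromosome 5, held 1852 counts that were almost entirely B6, and the pool was at 81.3%. Rpl21, a large subunit protein with 41 copies in the table, the most of any member, had shares of 63.7, 65.4 and 70.2% (-0.94 ± 0.121, FDR = 2.12e-13), and 56.4% with its copies. Rps7, which binds Mdm2 when ribosome assembly fails, had 63.6, 64.2 and 67.8% (-0.87 ± 0.114, FDR = 4.49e-13). Its copy Gm6472 lies on the X chromosome, held 2358 counts and was divided equally between the alleles, although the mice carry 1 X chromosome. Rps2 had 60.1, 62.7 and 64.6% (-0.71 ± 0.136, FDR = 2.11e-06), Rps20 55.02, 57.6 and 60.1% (-0.40 ± 0.114, FDR = 0.00307) and Rpl29 53.1, 56.2 and 57.4% (-0.32 ± 0.114, FDR = 0.0225). These 6 genes all had more B6 counts in all 7 mice.

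Rps20 shared 6.55% of its windows with other genes, and its copy was in effect without counts. The other 8 called members with B6 higher were Rps6, Rpl32, Rps24, Rpl39l, Rpl7, Rpl35a, Rpl22 and Rpl23a, with differences of 0.18 to 0.88 on the log2 scale and FDRs of 0.0237 to 0.170. Rpl39l, at 23 to 148 counts, had more CAST counts in 1 of 7 mice, and all others had more B6 counts in all 7. Of the 8 tested members with whole totals in every mouse, 4 were called, namely Rpl32, Rpl39l, Rps21 and Rps27l, and of the other 70, 29 were called, beside 34.8% of all tested genes.

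A male F1 mouse has a single X chromosome, so the X-linked genes show how reads were assigned to alleles. Of 134 tested X-linked genes with at least the mean counts of Rpl5, 110 (82.1%) had a mean B6 share above 90%, and the median was 99.1%. Rps4x was among them. Rpl10, which joins the large subunit last and in humans is linked to neurodevelopmental and growth disorders, had a B6 share of only 59.1, 60.7 and 61.0%. Rpl36a, 84.6% of whose windows occur in another gene, had B6 shares of 50 to 50.2% and Rpl39, a small protein of the exit tunnel, of 50 to 50.2%. Both were among 15 X-linked genes (11.2%) between 45 and 55%. The allele counts of 3 of the 4 X-linked members were thus divided between alleles in mice with 1 X chromosome. Rpl10 was called with B6 higher (-0.59 ± 0.120, SE, FDR = 1.16e-05) at a difference far below that of Rps4x. With its autosomal copy Rpl10-ps3, which held 12145 counts divided equally, the pool of Rpl10 was at 53.7% B6 and was not called (FDR = 0.225). Rpl39 was called only with its copies, at 33.1% B6, and its copy Rpl39-ps on chromosome 15 held 2271 counts of which 0.542% were assigned to B6.

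Some autosomal members also had equal counts of both alleles. Rpl30 and Rpl31 had equal B6 and CAST estimates in every mouse at 2364 to 5716 and 3694 to 9273 total counts. Rps16, at 2605 to 7133 counts, was equal in 6 mice, and in mouse 8 its B6 share was 50.2%. Including Rps14, Rpl36a and Rpl39, 6 members had shares near 50% with an SD between mice under 0.1 percentage points. Whether the alleles of the autosomal genes Rpl30, Rpl31, Rps14 and Rps16 were expressed equally cannot be told from such values.

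With the counts of all copies added to their gene, 34 of 79 members were called (43.0%, background 34.8%), of which 29 were also called alone. Rpl5, Rpl10, Rpl10a and Rpl29 lost their call. Rpl11, Rpl36, Rpl39, Rpl41 and Rps27 gained one. The largest copies of Rpl5, Rpl10 and Rpl29 were divided equally between the alleles. Such counts move a pool toward 50% in any case, so these 3 lost calls do not show equal alleles. Rpl41, the shortest member with 75 coding bases, moved furthest in its B6 share. Alone it had a B6 share of 48.4 to 51.6% and was not called. Its copy Gm10076, a lincRNA on chromosome 14, held 12337 counts on CAST and 4.18 on B6, and together they had a B6 share of 9.75% (log2 fold change 3.22, FDR = 2.10e-99). Rps27 could be tested only with Rps27rt on chromosome 9, where it had 99.3% B6. The number of autosomal members outside 40 to 60% B6 was 10 with the copies and 13 without.

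**Figure D5:**
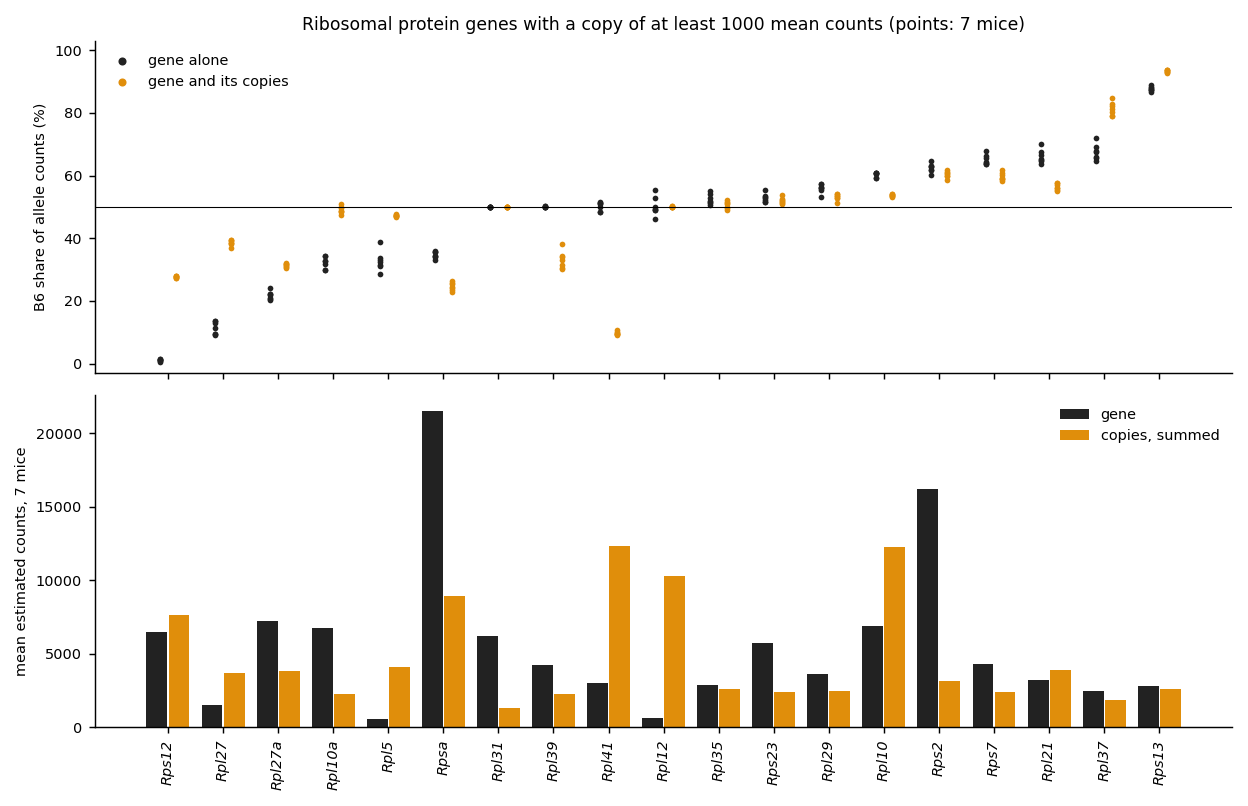
Top, B6 share of the allele counts in percent for 19 tested members with a copy of at least 1000 mean counts, for the gene alone (black) and with its copies (orange), with a point for each of the 7 mice. Bottom, mean estimated counts of the gene and of its copies summed. Rpl10a and Rpl5 move to near 50% when pooled, and Rpl41 moves from 50.2% to 9.75%.

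The genes of Diamond-Blackfan anaemia are of interest in a tissue that holds both red cell precursors and growing cartilage. Of 12 such members 5 were called (41.7%, near the 34.8% of all tested genes): Rpl5 and Rpl15 with CAST higher, and Rps7, Rps24 and Rpl35a with B6 higher. Rps24 had B6 shares of 53.9, 54.7 and 57.4% and Rpl35a of 52.4, 54.95 and 56.1%. Rps19, the gene most often mutated in the disease, had 45.3, 46.1 and 48.3%, with more CAST counts in all 7 mice. It was not called alone (0.23, FDR = 0.225) but was in the likelihood-ratio test with the mouse as a block (FDR = 1.41e-19). Rps10, Rps26, Rps29, Rpl11 and Rpl26 had mean B6 shares of 48.4 to 51.8% and were not called. Of these, Rps10, Rps29 and Rpl26 were called with the block.

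The 4 members with a known skeletal phenotype were Rpl38, whose loss gives the short-tailed mouse with vertebral defects, Rpl24, altered in the Belly spot and tail mouse, Rpl13, mutated in a human spondyloepimetaphyseal dysplasia, and Rpl10. Apart from Rpl10 they had mean B6 shares of 49.6% (Rpl38), 50.2% (Rpl24) and 52.2% (Rpl13), and none was called without the block. Rpl13 was called with it, with more B6 counts in all 7 mice. The FDR with the block was 9.93e-09 in the likelihood-ratio test and 0.00243 in the quasi-likelihood test. Rpl13 and Rpl38 were also among the members that varied least in level between mice. Of the 5 proteins that bind Mdm2 when ribosome assembly fails, Rpl5 and Rps7 were called (background 34.8%), and Rpl11, Rpl23 and Rpl26 were not, although Rpl23 and Rpl26 were called with the block. The stalk proteins Rplp0, Rplp1 and Rplp2 had mean B6 shares of 51.5, 50.8 and 50.04%, and Rps27a, made as a fusion with ubiquitin, 50.1%. None of these 4 was called. With the block the likelihood-ratio test called Rplp0 (FDR = 6.60e-96) at a B6 share of 51.2 to 51.8%. It also called Rplp1 (FDR = 0.196), which the quasi-likelihood test with the block did not call (FDR = 0.232). As seen for Rpl13, a likelihood-ratio FDR with the block can be far smaller than the quasi-likelihood one.

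Lists of other genes that make or regulate ribosomes were read against the same background. Of the 77 mitochondrial ribosomal protein genes 27 were called (35.1%, background 34.8%), led by Mrpl23 (3.11 ± 0.169, SE, FDR = 9.64e-74), with CAST higher, Mrpl9 (-0.62 ± 0.0985, FDR = 6.38e-09) and Mrpl10 (0.54 ± 0.0953, FDR = 2.63e-07). Apart from Mrpl23, 75.4% of whose windows occur in another gene, none exceeded 1 on the log2 scale. Among the cytosolic members 9 did (11.5%, background 14.1%). Of tested genes with at least the mean counts of Rpl5, 4.5% did. Of 51 ribosome biogenesis genes 12 were called (23.5%), led by the X-linked Gnl3l (98.4% B6) and Dkc1 (90.02% B6), both of which were higher from B6, and by Nle1 (0.59 ± 0.134, FDR = 0.000101). Of 18 genes of RNA polymerase I transcription 4 were called (22.2%), 3 of them with B6 higher. Of 16 other genes with TOP mRNAs, most of them elongation and initiation factors, 4 were called. They were led by Eef1b2 (0.38 ± 0.0955, FDR = 0.000658), with CAST higher. Of 16 genes in a list of TOP mRNA regulators and S6 kinases, which also held Mdm2 and Trp53, 3 were called (18.8%). They were led by Tsc2 (-0.22 ± 0.0866, FDR = 0.0523). Of 8 ribosomal protein genes outside the symbol rule, 3 were called (37.5%). They were Rps27rt with 99.3% B6, Fau with 22.6% B6 and Rps3a1 with 65.0% B6, while Rack1 was not called.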

How the data were processed

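Growth plate RNA of 7 mice was sequenced by the authors as stranded total RNA libraries after Ribo-Zero depletion. The authors aligned reads with Bowtie (at most 3 mismatches) to a joint B6 (mm10) and CAST transcriptome, and the deposited estimated counts per gene and allele were made with EMASE; versions are not given in the sources used here. Each read end was processed separately by the authors, so that a fragment can be counted more than once; the deposited totals exceed the stated average number of read pairs by more than counting both ends would give, which was not resolved. Estimates were rounded for the tests and were neither pooled nor scaled. Genes with an estimate above 1e-06 in every mouse were tested with edgeR 4.0.16 (R 4.3.3), TMM scaling and a likelihood-ratio test of allele, the test the study names, here without a mouse term, with Benjamini-Hochberg FDR under 0.20 as the call, over 20020 genes. The table held 14098019 to 37849667 counts per mouse. The p-values of the main fit treat the B6 and CAST columns of these 7 mice as independent. They set the allele difference against the spread in level between columns of an allele, not against the spread of the ratio between mice. The B6 and CAST values share an animal and a library, so mouse pairs them: the deviations of the alleles of a mouse from the allele means correlated at 0.184 on average (0.047 to 0.33), and those of different mice at -0.031, over 15111 genes. That correlation is over all these genes, and for the tested members the median SE was 0.12 without the block and 0.0293 with it. Levels are CPM over all counts, divided by the length of the main coding transcript of GENCODE M21 (42462 IDs matched, 98.0%). Copies are genes that share at least 10 windows of 75 bases. Ratios within a mouse used a pseudocount of 0.5 counts. The gene models are those of the B6 reference, and CAST sequence was not used here. The tests were checked on simulated data that had neither the pairing of alleles within mice nor the division of shared reads, so the check does not cover these. Members and lists were chosen with earlier results of these data known. Named were the 10 smallest p-values in each direction, the 10 highest and 5 lowest levels, the 5 largest and smallest SDs among members of at least 100 counts in every mouse, X-linked members, paralogs, members of the listed groups, members with equal or no counts, and the 3 smallest p-values of each related list. Genes named for a copy, or for whole totals, were chosen after their values were seen. Alternatives were DESeq2 1.42.0, the quasi-likelihood test, the mouse block, 1 library size per mouse, other filters, unrounded counts, an FDR under 0.05, other lengths and totals, and each mouse left out. Pooling of copies, coding length and the smallest-estimate limit were added after seeing the data. Some genes are not reported here by name or drawn, and all counts of genes include them.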

Additional observations from a re-analysis of the deposited data

Results flagged for a closer look

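In 157 sets of 7 values, 10 had a lowest or highest mouse set apart from the others, where chance would give 7.85 (1 in 20). Of these, 8 were low values of log2 CPM in mouse 4. Rps4x had 7.899 there against 8.585 to 8.804 in the other mice, Rps6 had 7.549 against 8.116 to 8.264 and Rpl7 had 6.871 against 7.381 to 7.687. Rpl17 had 7.08 against 7.652 to 7.875, Rpl21 had 6.365 against 6.898 to 7.245 and Rps24 had 6.892 against 7.398 to 7.692. Rpl4 had 7.732 against 8.158 to 8.355, and Rpl5 had 4.007 against 4.339 to 4.536. The GC content of these genes and its relation to their values in mouse 4 stand beside the same result above, and its part in them was not tested.

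The other flagged values were log2 ratios of CAST to B6 counts. Rpl17 had 0.1134 in mouse 1 against -0.05797 to 0.0123 in the other mice. Rps16 had -0.009968 in mouse 8, where the other 6 mice had equal counts of both alleles.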

How the results depend on the processing

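Pairing the alleles by a replicate block for mouse moved the count of called members from 33 to 57 in the likelihood-ratio test, 55 in the quasi-likelihood test and 59 with 1 library size per mouse. Leaving out each mouse gave 28 to 32, and 7 called members, Rpl22, Rpl23a, Rpl35a, Rpl37a, Rps21 and Rps27l among them, lost their call without at least 1 mouse, while 26 kept it. For the related lists the count went from 53 of 186 (background 34.8%) to 85 with the block, where the background also rose, to 45.6%. At an FDR under 0.05 it was 34 (background 23.8%). With the block and 1 library size per mouse it was 86, for which no background is given. The median log2 fold change of the members was -0.01964 with 1 library size per mouse and the block, -0.01602 without the block and 0.009453 with unrounded counts, against -0.00119. At an FDR under 0.05, 9 of the 33 members lost their call, and the share called of all tested genes fell from 34.8% to 23.8%. DESeq2 changed no call of a tested member, and the quasi-likelihood test without the block gave 32 calls. With copies pooled, 4 calls were lost and Rpl41, not called alone, took the opposite sign, at 3.225, with the counts of Gm10076 added. The mean share of 2.258% was 2.835% without 7SL and 7SK, 3.079% of protein-coding counts and 2.657% with copies. The mean over mice of the median level, 300.0, was 127.8 on merged exon length, 559.0 on coding length and 349.0 with copies. Depth limits Rpl39l most, with 23 to 148 counts per mouse.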
